A study of Homo sapiens with 8 samples.

Results

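The genes described here are 72 members of the enzyme families that write or remove marks on histones and DNA, chosen by their symbols among the 18564 genes measured. They fall into 10 families: lysine demethylases (KDM, 19 genes), histone deacetylases (HDAC, 11), the SET domain genes named SETD (9), lysine methyltransferases named KMT (8), protein arginine methyltransferases (PRMT, 7), sirtuins (SIRT, 7), DNA methyltransferases (DNMT, 4), the TET dioxygenases (3), EZH (2) and SUV (2). CARM1 and the NSD genes were left out by the same rule. RNA was sequenced from LP-1, a human multiple myeloma cell line, in 8 libraries. WT cells are the parental line, and BR cells are its bortezomib-resistant derivative, kept with bortezomib, a proteasome inhibitor, for 2 months according to the labels. Each line received vehicle (DMSO in the library titles, untreated in a further label of the WT libraries) or 25 nM SI-2 over 24 h, and each of the 4 resulting conditions has 2 libraries. SI-2 is a small-molecule inhibitor of the coactivator SRC-3. The labels do not say whether the 2 libraries of a condition came from separate cultures, so p-values measure the spread between these libraries. The BR line is 1 derivative, and the deposited labels do not separate resistance from the presence of bortezomib in the culture.

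Chromatin marks are set by paired activities. Methyltransferases of the KMT, SETD, EZH and SUV families add methyl groups to histone lysines, demethylases of the KDM family remove them, acetyl groups are removed by HDACs and by the NAD-dependent sirtuins, DNMTs methylate cytosine in DNA, and TET enzymes oxidise that methyl group. In myeloma, methylation of lysine 36 on histone H3 is of particular interest, because NSD2, an H3K36 methyltransferase, is overexpressed in a subset of the disease, and HDAC and EZH2 inhibitors have been developed as treatments.

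Of the 72 genes, 69 had enough reads to be tested, and KDM4E, DNMT3L and KDM5D were not tested. KDM4E had 0 or 1 read and DNMT3L, the catalytically inactive partner of DNMT3A and DNMT3B, had 0 or 1 read, which is under the limit of 3 reads that a count of 0 allows. The library totals ran from 17997771 to 18570027 estimated reads, so depth was nearly equal. CPM below are counts scaled to the library total and by TMM, and FPKM, the unit used to compare genes with each other, also accounts for gene length. Values are given in the order replicate 1, replicate 2.

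The libraries did not group by condition in these genes. Across the 69 genes, the SD of the log2 CPM difference between the 2 libraries of a condition was 0.269 to 0.325, but between vehicle and SI-2 libraries of replicate 2 it was only 0.147 in WT and 0.105 in BR cells. Between vehicle and SI-2 of replicate 1 it was 0.291 in WT and 0.329 in BR cells. Whether the vehicle and SI-2 libraries of replicate 2 came from separate treatments, or carry the right labels, cannot be told from the files. Every SI-2 against vehicle value below includes them. The comparison of 4 BR with 4 WT libraries counts them as separate, and its p-values would be too small if they were not. Libraries of the same number are set side by side only as a description, since the labels do not say that a number marks a shared culture. The squared difference per gene, divided by its expectation from counting error alone, averaged 2.50 (WT) and 1.27 (BR) for the replicate 2 pairs and 25.3 and 29.9 for the replicate 1 pairs. The median absolute log2 difference between vehicle and SI-2 was 0.17 (WT) and 0.22 (BR) in replicate 1, and 0.063 and 0.052 in replicate 2. All 8 plasma cell markers were in the table, their summed FPKM was 1567 to 1893 in WT and 1120 to 1572 in BR libraries, and SLAMF7 was the 1 marker under 1 FPKM in every library. Of 10 markers of other cell types, 8 were in the table, and their summed FPKM was at most 3.18 in WT libraries and 15.6 in the BR SI-2 replicate 2 library. In that library COL1A1, a fibroblast collagen, was listed at 9.84 FPKM against at most 0.07 in the other 7, COL1A2 had 155 reads against at most 4, and EPCAM, an epithelial marker, had 26 against at most 1. Without that library the counts of genes at an unadjusted p under 0.05 given below were 4 in place of 5 between the lines. Over all genes the count between the lines was then 1376 in place of 1942. For SI-2 in both lines it was 5 of the 69 as before, with no count over all genes given. The part of other cells in the results was not tested.

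The levels of the enzymes ranged from a mean of 0.500 FPKM for KDM4D to 143 for PRMT1. The median over the 69 genes of the mean FPKM was 12.2, against 8.41 over the 13896 genes tested, and 46 of the 69 lay above that median. The highest and lowest FPKM of a gene over the 8 libraries differed by a median factor of 1.44.

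**Figure D1:**
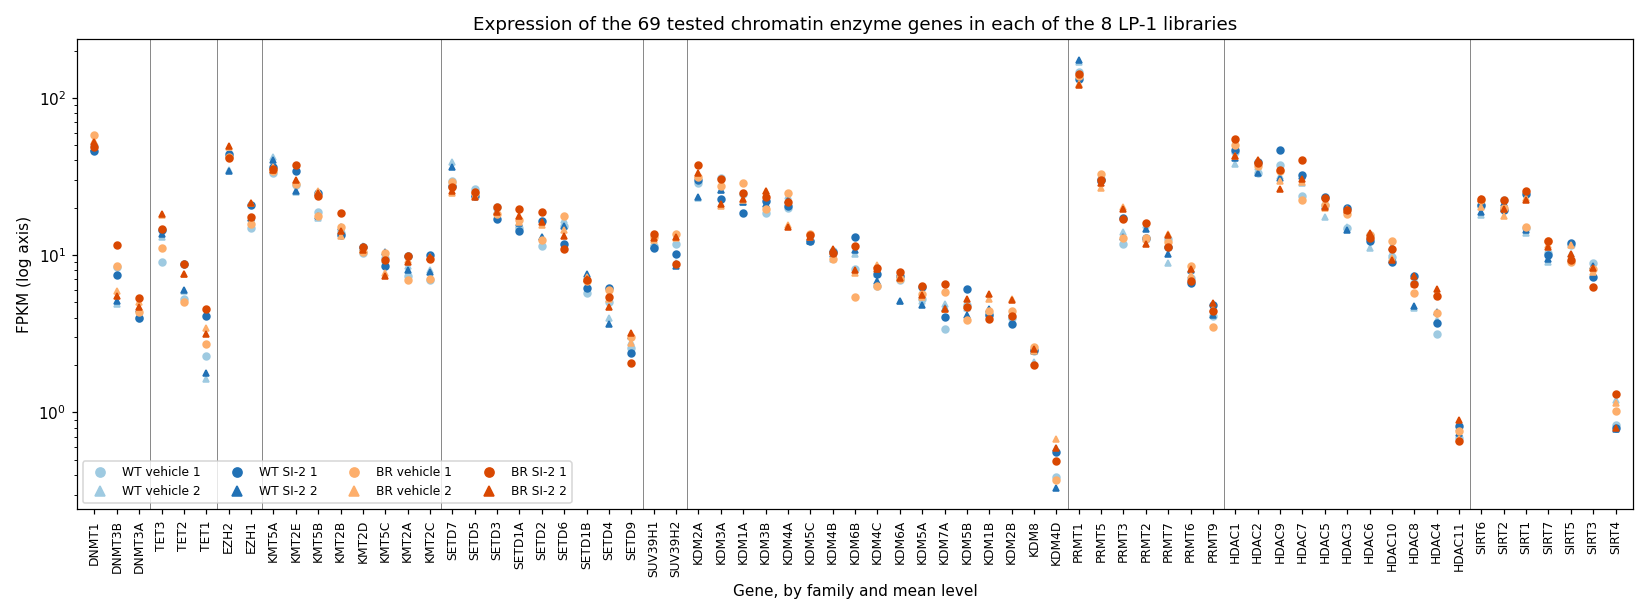
FPKM (log axis) of the 69 tested genes in each of the 8 libraries, grouped by family (DNMT, TET, EZH, KMT, SETD, SUV, KDM, PRMT, HDAC and SIRT, separated by lines) and sorted by mean level. Circles are replicate 1 and triangles replicate 2, blue is WT and orange BR, and dark colours are SI-2. PRMT1 stands above all other genes, and KDM4D, HDAC11 and SIRT4 lie lowest.

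DNMT1, which copies methylation to the new DNA strand after replication, was the most abundant DNA methyltransferase, at 49.7 and 47.5 (WT vehicle), 45.7 and 48.2 (WT SI-2), 57.8 and 53.3 (BR vehicle) and 48.6 and 52.7 (BR SI-2) FPKM. The de novo enzymes were far lower. DNMT3B ranged from 4.88 to 11.5 FPKM and DNMT3A from 3.97 to 5.30 FPKM. For DNMT3B, the 4 replicate 1 libraries had 7.47 to 11.5 FPKM and the 4 replicate 2 libraries 4.88 to 5.91. HDAC1 and HDAC9 also had no overlap between the replicate numbers, and how many genes share this was not counted. Among the TET enzymes, TET3 was highest (mean 14.0 FPKM) and TET1 lowest, at 2.28 and 1.63 (WT vehicle), 4.10 and 1.78 (WT SI-2), 2.72 and 3.42 (BR vehicle) and 4.57 and 3.17 (BR SI-2) FPKM, the widest relative range of any tested gene (2.80-fold).

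Of the lysine methyltransferases, EZH2, the catalytic subunit of PRC2 that writes H3K27 methylation, had 42.7 and 34.6 (WT vehicle), 44.2 and 34.3 (WT SI-2), 42.3 and 48.6 (BR vehicle) and 41.2 and 49.3 (BR SI-2) FPKM, and its paralogue EZH1 was lower, with a mean of 18.3. KMT5A, which monomethylates H4K20, led the KMT genes with 33.1 and 42.0 (WT vehicle), 36.5 and 40.4 (WT SI-2), 34.5 and 36.2 (BR vehicle) and 35.5 and 34.7 (BR SI-2) FPKM. The lowest was KMT2C, an H3K4 monomethyltransferase at enhancers, at 6.94 and 8.07 (WT vehicle), 10.0 and 7.85 (WT SI-2), 7.05 and 9.79 (BR vehicle) and 9.43 and 9.66 (BR SI-2) FPKM. KMT2D, its paralogue, was the steadiest of the 69 genes, at 10.3 to 11.5 FPKM, and KMT2A, the founding member of the MLL group, ranged from 6.90 to 9.90 FPKM. SETD7, which monomethylates H3K4 and non-histone proteins, was the highest of the SETD genes, at 29.6 and 38.9 (WT vehicle), 27.5 and 36.3 (WT SI-2), 29.2 and 24.7 (BR vehicle) and 27.1 and 25.4 (BR SI-2) FPKM. SETD9 was the lowest, with a mean of 2.73. Both SUV genes write H3K9 trimethylation. SUV39H1 was at 11.2 to 13.5 FPKM and SUV39H2 at 8.54 to 13.6 FPKM, so that their ranges overlapped.

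PRMT1, the main enzyme for asymmetric arginine dimethylation, was the most abundant of the 72 genes, at 147 and 169 (WT vehicle), 132 and 174 (WT SI-2), 139 and 123 (BR vehicle) and 141 and 121 (BR SI-2) FPKM. PRMT5, which makes the symmetric mark, was next in its family (mean 30.1 FPKM) and PRMT9 lowest (mean 4.37). The lysine demethylases were led by KDM2A, at 28.7 and 23.0 (WT vehicle), 30.2 and 23.4 (WT SI-2), 31.3 and 32.1 (BR vehicle) and 37.5 and 33.1 (BR SI-2) FPKM, and ended with KDM4D, a testis-enriched H3K9 demethylase, at 0.330 to 0.680 FPKM. KDM1A (LSD1), which removes H3K4 mono- and dimethylation, had a mean of 23.2 FPKM. The H3K27 demethylases KDM6A and KDM6B had means of 6.77 and 9.34.

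Among the deacetylases, the class I enzymes HDAC1 and HDAC2 were highest, with HDAC1 at 44.9 and 38.0 (WT vehicle), 46.3 and 41.6 (WT SI-2), 50.1 and 42.8 (BR vehicle) and 54.5 and 42.7 (BR SI-2) FPKM and HDAC2 at 33.1 to 40.3 FPKM. Their ranges overlapped. HDAC9, a class IIa enzyme, followed at 26.3 to 46.9 FPKM, and HDAC11 was lowest at 0.660 to 0.900 FPKM. HDAC3, the NCOR-bound deacetylase, and HDAC6, which deacetylates tubulin, had means of 17.6 and 12.9 FPKM. Of the sirtuins, SIRT6 was highest at 20.5 and 18.1 (WT vehicle), 20.9 and 18.9 (WT SI-2), 22.3 and 20.3 (BR vehicle) and 22.8 and 22.8 (BR SI-2) FPKM, and the mitochondrial SIRT4 lowest at 0.780 to 1.31 FPKM. SIRT2, a largely cytoplasmic enzyme, was close to SIRT6 (mean 20.5), as was SIRT1 (mean 19.2), which ran from 13.9 to 25.5 FPKM.

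The first comparison asked which of these enzymes differed between bortezomib-resistant and parental cells, with the 4 BR libraries set against the 4 WT libraries. In edgeR's quasi-likelihood test, 0 of the 69 genes had an adjusted p under 0.05, against 0.362% of all 13520 genes tested, and DESeq2 also called 0. At an unadjusted p under 0.05 there were 5 of 69 (7.25%), below the 14.4% of all genes. In RNA from whole cultures, a change in RNA per cell and a change in the share of cells with that RNA cannot be told apart. HDAC4, KDM2A and SIRT7 were higher in BR cells and SETD7 and PRMT1 lower. The median log2 fold change of the 69 genes was 0.10, and 49 of them (71.0%) were on the higher side in BR cells, against a median of 0.0042 and 50.9% over all genes. No family had a call, and no difference between families was tested. DNMT, EZH, SUV and TET had all of their tested genes on the higher side (3, 2, 2 and 3 genes), HDAC 9 of 11, KDM 13 of 17, KMT 5 of 8, SETD 5 of 9, SIRT 4 of 7 and PRMT 3 of 7.

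**Figure D2:**
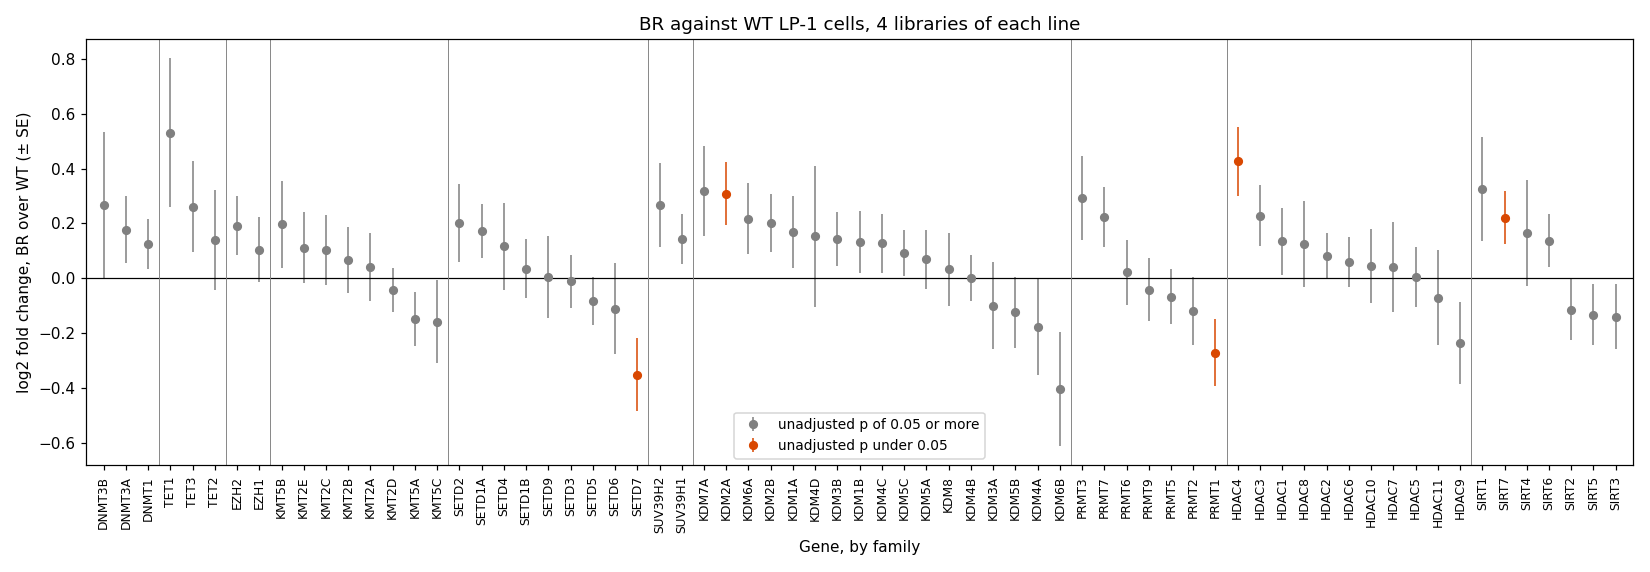
Log2 fold change of BR over WT cells for the 69 genes (4 libraries of each line, edgeR, bars ± SE), grouped by family as in the plot of levels and sorted within it. The 5 genes in orange had an unadjusted p under 0.05 and none passed the adjusted threshold. All 3 DNMT and all 3 TET genes lie above 0.

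HDAC4, a class IIa deacetylase that acts largely as a scaffold for HDAC3 complexes, had the smallest p. Its CPM was 28.7 and 34.8 (WT vehicle), 32.3 and 38.9 (WT SI-2), 37.0 and 47.8 (BR vehicle) and 47.3 and 48.8 (BR SI-2). The mean was 33.7 ± 4.27 in the WT libraries and 45.2 ± 5.51 in the BR libraries (SD, n = 4 each; log2 fold change 0.43 ± 0.13 (SE), unadjusted p = 0.00611, adjusted p = 0.189 by edgeR). The lowest BR library, vehicle replicate 1, lay below the highest WT library, SI-2 replicate 2, so the lines overlapped. Leaving out each library in turn gave a log2 fold change of 0.36 to 0.51, with an unadjusted p of at most 0.0199.

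KDM2A, an H3K36 demethylase that binds unmethylated CpG islands through its CXXC zinc finger, had 176 and 142 (WT vehicle), 181 and 145 (WT SI-2), 194 and 188 (BR vehicle) and 228 and 187 (BR SI-2) CPM. All 4 BR libraries were above all 4 WT libraries. The mean CPM was 161 ± 20.6 in the WT libraries and 199 ± 19.7 in the BR libraries (log2 fold change 0.31 ± 0.11 (SE), unadjusted p = 0.0205, adjusted p = 0.265). SIRT7, a nucleolar deacetylase of H3K18, had 23.4 and 21.1 (WT vehicle), 21.1 and 21.0 (WT SI-2), 26.9 and 24.1 (BR vehicle) and 26.4 and 23.6 (BR SI-2) CPM, again with no overlap between the lines (log2 fold change 0.22 ± 0.10 (SE), unadjusted p = 0.043, adjusted p = 0.334). These were the only 2 of the 69 genes in which all BR libraries lay above all WT libraries, which held for 3.78% of all genes, and in 0 of the 69 did they lie below, against 4.36% of all genes. Without overlap, both differences necessarily have the same sign at either replicate number, and only their sizes are described. The log2 difference of KDM2A was 0.14 (vehicle) and 0.34 (SI-2) between the replicate 1 libraries and 0.41 and 0.37 between the replicate 2 libraries, and that of SIRT7 was 0.20 (vehicle) and 0.32 (SI-2) between the replicate 1 libraries and 0.19 and 0.16 between the replicate 2 libraries. KDM2A's p lay above 0.05 without WT vehicle 2, WT SI-2 2 or BR SI-2 1, at 0.0635 or less, and that of SIRT7 in 6 of the 8 omissions, at 0.0971 or less.

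For SETD7 and PRMT1, the lower level in BR cells was seen in the replicate 2 libraries and hardly or not in those of replicate 1. SETD7 had 196 and 259.6 (WT vehicle), 179 and 237 (WT SI-2), 194 and 154 (BR vehicle) and 179 and 156 (BR SI-2) CPM, so that the 2 WT replicate 2 libraries stood above the other 6 (log2 fold change -0.35 ± 0.13 (SE), unadjusted p = 0.0232, adjusted p = 0.273). Its log2 difference between the lines was -0.01 (vehicle) and -0.0022 (SI-2) between the replicate 1 libraries and -0.75 and -0.61 between the replicate 2 libraries. PRMT1 had 211 and 241 (WT vehicle), 185 and 247 (WT SI-2), 201 and 167 (BR vehicle) and 202 and 161 (BR SI-2) CPM (log2 fold change -0.27 ± 0.12 (SE), unadjusted p = 0.0482, adjusted p = 0.342), and its differences were -0.07 (vehicle) and 0.13 (SI-2) between the replicate 1 libraries and -0.52 and -0.62 between the replicate 2 libraries. The same held in the opposite direction for EZH2, at 0.03 (vehicle) and -0.08 (SI-2) between the replicate 1 libraries and 0.43 and 0.41 between the replicate 2 libraries, and SIRT1, at 0.05 (vehicle) and 0.15 (SI-2) between the replicate 1 libraries and 0.63 and 0.50 between the replicate 2 libraries. KDM4A, a demethylase of H3K9 and H3K36, differed in sign between the replicate numbers, at 0.33 (vehicle) and 0.11 (SI-2) between the replicate 1 libraries and -0.66 and -0.66 between the replicate 2 libraries, and its mean change over 4 libraries was -0.18 ± 0.18. TET1 had the largest mean change (log2 fold change 0.53 ± 0.27 (SE), unadjusted p = 0.0773, adjusted p = 0.401), but its libraries overlapped, with 30.8 and 21.6 (WT vehicle), 53.8 and 24.4 (WT SI-2), 37.9 and 45.2 (BR vehicle) and 64.5 and 40.9 (BR SI-2) CPM. KDM6B had the largest change in the lower direction, -0.40 ± 0.21, with an unadjusted p of 0.0773.

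**Figure D3:**
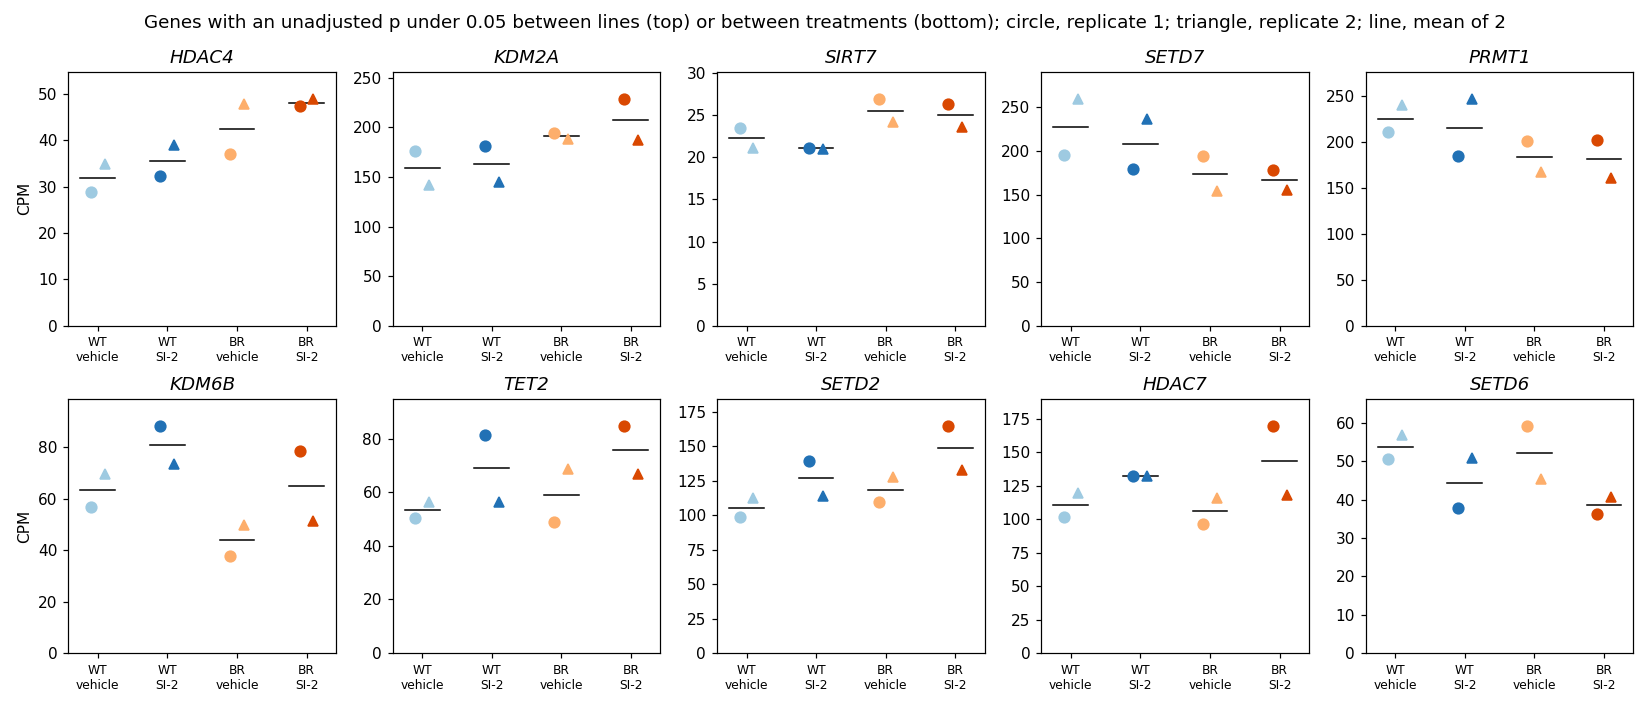
CPM of the 5 genes with an unadjusted p under 0.05 between the lines (top row) and the 5 between treatments (bottom row), in the 4 conditions. Circles are replicate 1, triangles replicate 2 and bars the mean of 2. In KDM2A and SIRT7 all BR points lie above all WT points, and in the bottom row the 2 circles of a line lie farther apart than its 2 triangles.

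Fitted on the libraries of 1 replicate number, with treatment as a term and 1 residual degree of freedom, the counts differed widely. The replicate 1 libraries gave 3 of 69 genes at an adjusted p under 0.05 (all higher in BR), where 5.72% of all genes were called. Replicate 2 gave 38 of 69 (23 higher and 15 lower), where 48.2% of all genes were called. In replicate 2 the spread was estimated from vehicle and SI-2 libraries of a line that were nearly alike, and each condition had 1 library. With vehicle libraries alone (2 against 2), 0 of 69 genes had an adjusted p under 0.05 (0% of all genes) and 0 an unadjusted p under 0.05 (3.89% of all genes). DESeq2 gave 0 and 1. The median log2 change was then 0.087. The largest changes among genes with a mean count of at least 50 were those of TET1 (0.66 ± 0.37) and HDAC4 (0.42 ± 0.19) on the higher and KDM6B (-0.53 ± 0.24) and SETD7 (-0.39 ± 0.21) on the lower side.

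Because KDM2A has 2 annotated start sites, the deposited transcript values were used to ask what part of its reads was assigned to the short form. The short form starts inside the gene, and its protein lacks the demethylase (JmjC) domain but keeps the CXXC zinc finger. In the GENCODE annotation of GRCh38, it starts at position 67240047 on chromosome 11 (plus strand), has 10 exons and encodes 723 residues, against a start at 67119687, 21 exons and 1162 residues for the long form. The files were made on hg19 and hold no coordinates, so these positions come from the reference alone. Sequences at the upstream and the internal RefSeq start of the gene (GRCh38.p14) are shown. They run from 250 bases before to 50 bases after each RefSeq start, which lies upstream of the GENCODE start in both cases. The upstream window ends at 67119312, before the GENCODE start of the long form, while the internal window holds that of the short form. Each CG dinucleotide, the target of DNA methylation and of the CXXC finger, is in capitals.
KDM2A upstream start, chr11:67119013-67119312, plus strand: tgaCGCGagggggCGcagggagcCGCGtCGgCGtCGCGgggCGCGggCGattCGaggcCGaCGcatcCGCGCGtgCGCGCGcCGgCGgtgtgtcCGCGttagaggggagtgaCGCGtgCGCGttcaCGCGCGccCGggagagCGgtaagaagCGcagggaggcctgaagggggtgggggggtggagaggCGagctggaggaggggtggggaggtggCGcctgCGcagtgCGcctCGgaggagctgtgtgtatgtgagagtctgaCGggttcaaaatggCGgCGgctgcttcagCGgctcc
KDM2A internal start, chr11:67239764-67240063, plus strand: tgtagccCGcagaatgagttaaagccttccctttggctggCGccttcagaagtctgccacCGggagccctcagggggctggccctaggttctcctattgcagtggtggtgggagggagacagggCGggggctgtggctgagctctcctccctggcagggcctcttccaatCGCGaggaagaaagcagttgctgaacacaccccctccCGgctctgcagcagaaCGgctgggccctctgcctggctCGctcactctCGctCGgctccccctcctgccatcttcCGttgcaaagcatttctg
The upstream window held 44 CG and the internal one 12, where the median of all 35116 such windows was 14 and that of the 104 windows of these enzymes 29. As many CG as in the upstream window were found in 4.19% of all windows, and as many as in the internal one in 53.1%. A CCAAT box (CCAAT or ATTGG) stood once in the internal window and not in the upstream one (34.6% of all windows hold it), and likewise a GC box (GGGCGG or CCGCCC, 45.0% of all windows).

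The short form took 42.6% to 52.9% of the KDM2A reads. In CPM without TMM scaling it had 80.7 and 59.6 (WT vehicle), 89.7 and 62.3 (WT SI-2), 91.0 and 91.6 (BR vehicle) and 119 and 105 (BR SI-2), a mean of 73.1 ± 14.5 in WT and 101 ± 13.1 in BR (SD, n = 4 each). All BR libraries were above all WT libraries, though BR vehicle replicate 1 exceeded WT SI-2 replicate 1 only narrowly. The gene as a whole was already without overlap between the lines. The same trait in a part of its reads is thus not a separate result, and no share over all transcripts was taken. The other KDM2A transcripts together had 91.7 and 80.3 (WT vehicle), 92.3 and 80.5 (WT SI-2), 97.4 and 102 (BR vehicle) and 106 and 93.1 (BR SI-2), a mean of 86.2 ± 6.71 in WT and 99.6 ± 5.52 in BR. The lines again did not overlap, though BR SI-2 replicate 2 exceeded WT SI-2 replicate 1 only narrowly. These transcripts are the long form, at 4.17% to 12.1% of the reads, and models whose start is not given here. The reads were therefore not divided between the 2 starts. No test was run on transcripts, and the difference between the forms was not tested. For most of the enzymes the division among transcripts was unstable. Here the share of the leading transcript was taken in the gene's FPKM, not in its reads. Of 66 genes with more than 1 transcript, that share stayed at 80% or more in every library in 4, and ranged over 30 percentage points or more in 25. In SIRT7, a single transcript took from 7.63% to 60.5% of the reads in different libraries. Changes of isoform were therefore not read from these files for the other genes.

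**Figure D4:**
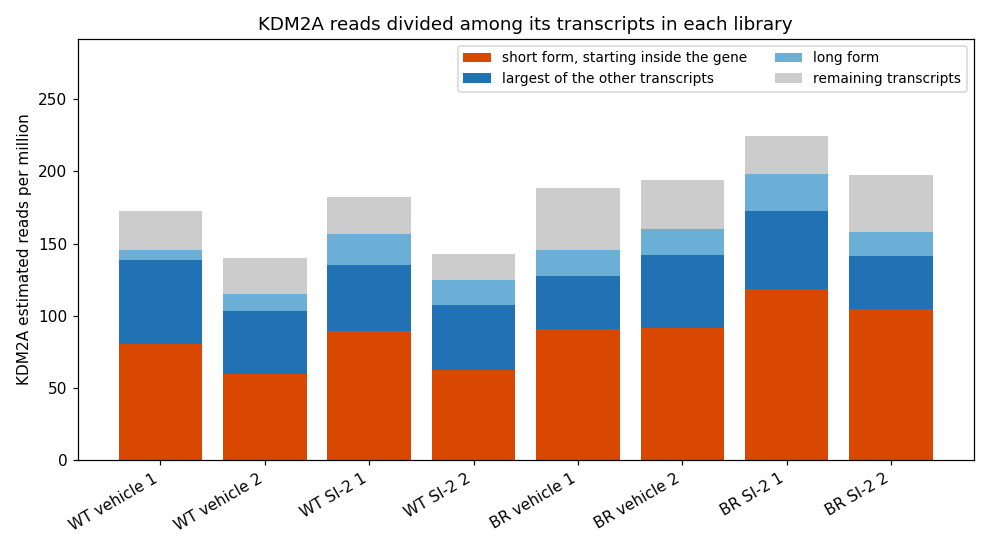
Estimated KDM2A reads (CPM without TMM scaling) in each library, divided among the short form (orange), the transcript model with the most reads of the others, whose start is not given in the reference tables used here (dark blue), the long form (light blue) and the remaining transcripts (grey). The short form is the largest of these 4 parts in every library. The other parts together exceed it except with SI-2 in BR cells, where it took 52.9%. The short form is higher in all 4 BR libraries (91.0 to 119) than in all 4 WT libraries (59.6 to 89.7), as is the gene as a whole.

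The second question was whether SI-2 changed these enzymes. With the 4 SI-2 libraries against the 4 vehicle libraries, 0 of 69 genes had an adjusted p under 0.05 in edgeR (0% of all genes) and 0 in DESeq2. At an unadjusted p under 0.05 there were 5 (7.25%), against 2.22% of all genes. HDAC7, TET2, SETD2 and KDM6B were higher with SI-2 and SETD6 lower. The median log2 change of the 69 genes was 0.011, with 38 on the higher side. In WT cells alone, 0 genes had an adjusted p under 0.05 (0% of all genes) and 0 an unadjusted p under 0.05 (0.533% of all genes). In BR cells these numbers were 0 (0%) and 1, KDM6B, against 1.2% of all genes. DESeq2 gave the same counts in both lines. All 3 TET genes were on the higher side in each line, and none had an adjusted p under 0.05. For TET1, TET2 and TET3 the log2 changes were 0.57, 0.37 and 0.33 in WT and 0.34, 0.36 and 0.17 in BR. Between the replicate 2 libraries alone their differences were 0.17, 0.01 and 0.11 in WT and -0.14, -0.04 and 0.02 in BR. Of other families, HDAC had 11 of 11 genes higher in WT and 8 of 11 in BR cells. KMT had 6 of 8 in each line, while SIRT had 2 of 7 in WT and 3 of 7 in BR cells.

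For all 5 genes and in both lines, the difference between SI-2 and vehicle was larger in the replicate 1 than in the replicate 2 libraries. KDM6B, an H3K27 demethylase induced by many stress and inflammatory signals, had 56.8 and 69.7 (WT vehicle), 88.2 and 73.4 (WT SI-2), 37.7 and 49.9 (BR vehicle) and 78.7 and 51.3 (BR SI-2) CPM (log2 fold change 0.45 ± 0.20 (SE), unadjusted p = 0.0498, adjusted p = 0.999, and in BR cells log2 fold change 0.57 ± 0.24 (SE), unadjusted p = 0.0438, adjusted p = 0.9999). Its log2 difference between SI-2 and vehicle was 0.63 in WT and 1.06 in BR between the replicate 1 libraries and 0.07 and 0.04 between the replicate 2 libraries. TET2, which oxidises methylcytosine and is a tumour suppressor in blood cells, had 50.4 and 56.2 (WT vehicle), 81.4 and 56.5 (WT SI-2), 49.0 and 68.8 (BR vehicle) and 84.6 and 66.9 (BR SI-2) CPM (log2 fold change 0.37 ± 0.15 (SE), unadjusted p = 0.0376, adjusted p = 0.999). The differences were 0.69 in WT and 0.79 in BR between the replicate 1 libraries and 0.01 and -0.04 between the replicate 2 libraries. Without BR vehicle 1 or BR SI-2 1, 0 of the 69 genes had an unadjusted p under 0.05, and without BR vehicle 2 there were 9. No count over all genes is given for these omissions.

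SETD2, which trimethylates H3K36, had 98.3 and 113 (WT vehicle), 139 and 114 (WT SI-2), 109 and 128 (BR vehicle) and 164 and 133 (BR SI-2) CPM and a mean of 112 ± 12.04 with vehicle and 138 ± 20.8 with SI-2 (SD, n = 4 each; log2 fold change 0.30 ± 0.13 (SE), unadjusted p = 0.0422, adjusted p = 0.999). By replicate number its differences were 0.50 in WT and 0.59 in BR between the replicate 1 libraries and 0.02 and 0.06 between the replicate 2 libraries. HDAC7, a class IIa deacetylase of lymphoid cells, had 101 and 119 (WT vehicle), 132 and 132 (WT SI-2), 96.4 and 116 (BR vehicle) and 169 and 118 (BR SI-2) CPM (log2 fold change 0.35 ± 0.13 (SE), unadjusted p = 0.0213, adjusted p = 0.999), with differences of 0.38 in WT and 0.81 in BR between the replicate 1 libraries and 0.15 and 0.02 between the replicate 2 libraries. SETD6, which methylates the NF-kappa-B subunit RELA, had 50.6 and 56.8 (WT vehicle), 37.8 and 50.9 (WT SI-2), 59.2 and 45.4 (BR vehicle) and 36.3 and 40.8 (BR SI-2) CPM (log2 fold change -0.35 ± 0.13 (SE), unadjusted p = 0.0238, adjusted p = 0.999). Its differences were -0.42 in WT and -0.70 in BR between the replicate 1 libraries and -0.16 and -0.15 between the replicate 2 libraries. Its vehicle and SI-2 libraries overlapped, since WT SI-2 replicate 2 lay above BR vehicle replicate 2.

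**Figure D5:**
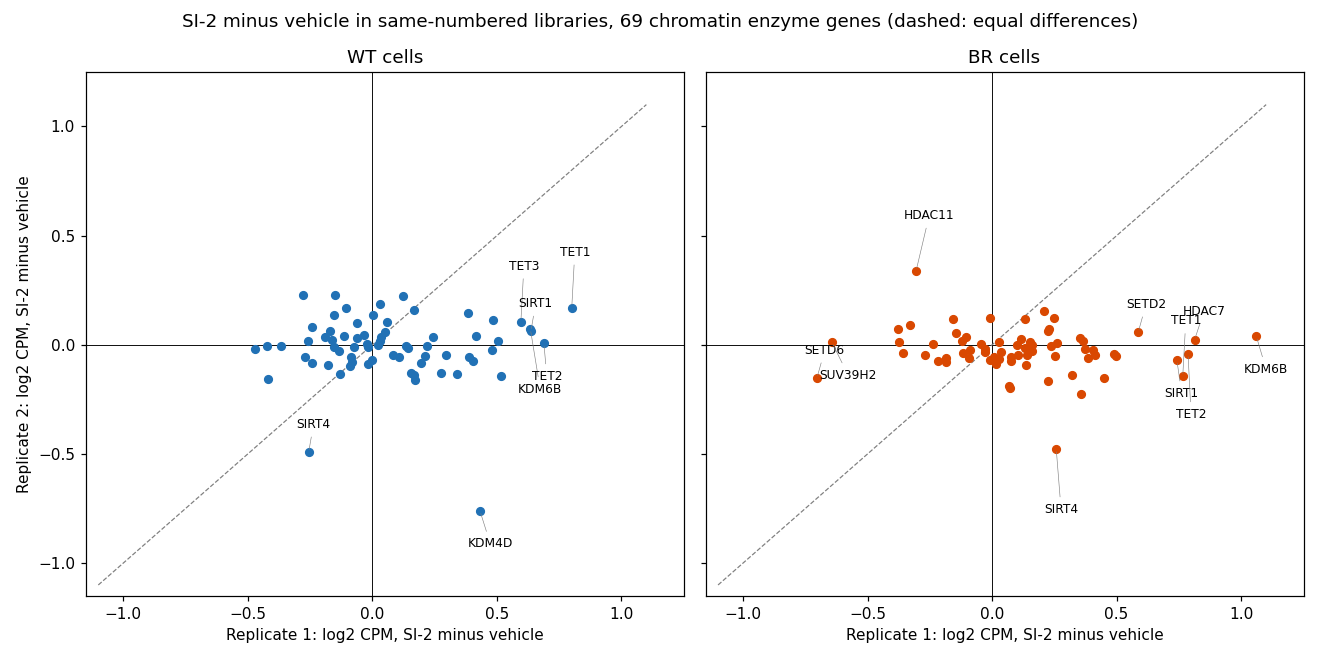
Log2 CPM of SI-2 minus vehicle in the replicate 2 libraries (vertical) against the same difference in the replicate 1 libraries (horizontal), for the 69 genes in WT (left) and BR cells (right). The dashed line marks equal differences. The points spread along the horizontal axis to 0.80 in WT and 1.06 in BR and stay near 0 on the vertical axis, where KDM4D, HDAC11 and SIRT4, genes with few reads, lie farthest out.

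In replicate 1, 14 of the 69 genes differed by more than 0.3 in both lines and in 1 direction, against 17% of all genes. Of these, 12 were higher with SI-2 (HDAC7, KDM4D, KDM6B, KMT2A, KMT2C, KMT5B, PRMT3, SETD2, SIRT1 and all 3 TET genes) and SETD6 and SIRT3 lower. Of these 14, only KDM4D, with a mean of 0.500 FPKM, passed 0.3 in replicate 2, and in the opposite direction. SIRT1, the nuclear NAD-dependent deacetylase, had 60.3 and 56.3 (WT vehicle), 93.8 and 58.7 (WT SI-2), 62.3 and 87.4 (BR vehicle) and 104 and 83.2 (BR SI-2) CPM and differences of 0.64 in WT and 0.74 in BR between the replicate 1 libraries and 0.06 and -0.07 between the replicate 2 libraries. PRMT3 differed by 0.52 in WT and 0.41 in BR between the replicate 1 libraries and -0.14 and -0.03 between the replicate 2 libraries, and SIRT3, a mitochondrial deacetylase, by -0.37 in WT and -0.38 in BR between the replicate 1 libraries and -0.01 and 0.07 between the replicate 2 libraries.

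Length moved with the replicate 1 difference. Over the 69 genes, Spearman's rho between the SI-2 difference and the effective transcript length, taken from each gene's count and FPKM, was 0.40 in WT and 0.45 in BR for replicate 1 and 0.06 and -0.05 for replicate 2. Over all 13896 genes, the values for replicate 1 were 0.14 and 0.11. The median length was 4103 bases for the 69 genes and 3144 for all genes. These correlations run across genes, which share libraries and are not independent replicates, and the part of length in the SI-2 differences was not tested.

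Fitted on 1 replicate number, with line as a term and 1 residual degree of freedom, replicate 1 gave 17 of 69 genes at an adjusted p under 0.05 (13 higher and 4 lower with SI-2), where 18.8% of all genes were called. Replicate 2 gave 0 of 69, where 0.0949% of all genes were called and 2 of the 69 genes had an unadjusted p under 0.05.

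The promoters of KDM6B and SETD6, the genes with the largest SI-2 differences in either direction over both lines, and of HDAC4, which had the smallest p between the lines, are shown for comparison with those of KDM2A. Each is the RefSeq window (GRCh38.p14) with the most CG where a gene has several, written 5′ to 3′ along the gene's strand, with CG in capitals.
HDAC4, chr2:239401600-239401899, minus strand: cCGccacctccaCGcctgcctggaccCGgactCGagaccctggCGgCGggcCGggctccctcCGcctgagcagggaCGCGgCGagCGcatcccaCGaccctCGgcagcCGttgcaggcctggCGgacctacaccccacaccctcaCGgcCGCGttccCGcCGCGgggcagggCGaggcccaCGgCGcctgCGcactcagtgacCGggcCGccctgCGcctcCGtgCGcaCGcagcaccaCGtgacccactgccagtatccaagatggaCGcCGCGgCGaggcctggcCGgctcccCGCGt
KDM6B, chr17:7833967-7834266, plus strand: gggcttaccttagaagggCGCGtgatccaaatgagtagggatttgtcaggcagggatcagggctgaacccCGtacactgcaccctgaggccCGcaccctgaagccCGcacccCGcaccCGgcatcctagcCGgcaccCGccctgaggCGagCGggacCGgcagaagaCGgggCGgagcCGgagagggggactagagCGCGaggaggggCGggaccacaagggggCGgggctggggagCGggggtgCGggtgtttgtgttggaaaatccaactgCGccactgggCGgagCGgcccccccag
SETD6, chr16:58515267-58515566, plus strand: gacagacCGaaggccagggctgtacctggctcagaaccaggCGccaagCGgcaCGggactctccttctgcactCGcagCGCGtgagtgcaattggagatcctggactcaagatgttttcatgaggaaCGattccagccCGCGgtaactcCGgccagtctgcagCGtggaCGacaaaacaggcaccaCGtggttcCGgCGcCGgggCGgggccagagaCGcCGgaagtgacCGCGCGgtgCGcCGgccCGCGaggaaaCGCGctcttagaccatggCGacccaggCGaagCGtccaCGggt
The windows held 40, 24 and 33 CG. GC boxes stood 5 times in that of KDM6B and once in each of the others, and a CCAAT box once in that of SETD6 only. Over the 104 windows of these enzymes, which cover 67 of the 72 genes, 67.3% held a GC box and 30.8% a CCAAT box, against 45.0% and 34.6% of all windows. DNMT3L, HDAC5, KDM4E, SETD1B and SIRT7 had no entry.

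The third comparison asked whether the response to SI-2 differed between the lines, by subtracting the SI-2 effect in WT from that in BR cells. Of 69 genes, 0 had an adjusted p under 0.05 (0% of all genes) and 0 an unadjusted p under 0.05 (0.533% of all genes), and DESeq2 gave 0 and 0. The largest values among genes with a mean count of at least 50 were 0.35 ± 0.58 for DNMT3B and 0.33 ± 0.34 for KDM3A on the higher side, and -0.29 ± 0.30 for KDM8 and -0.25 ± 0.34 for SETD9 on the lower. DNMT3B's SI-2 differences were -0.24 in WT and 0.45 in BR between the replicate 1 libraries and 0.08 and -0.15 between the replicate 2 libraries, and those of KDM3A, an H3K9 demethylase, -0.47 in WT and 0.12 in BR between the replicate 1 libraries and -0.02 and 0.02 between the replicate 2 libraries. For each of these 4 genes the change was smaller than its standard error in the fit of 4 conditions.

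A list of 10 genes was followed for H3K36 methylation, the mark that NSD2 writes. It holds SETD2, SETD3 and SETD5, the KDM genes KDM2A, KDM2B, KDM4A, KDM4B, KDM4C and KDM8, and KDM4D, a relative of the KDM4 enzymes that acts on H3K9 and not on H3K36. Methyltransferase and demethylase families are pooled in it, so its counts and medians give no direction for H3K36 methylation. Between the lines 7 were higher in BR cells and 3 lower, with a median of 0.080, against 0.0042 over all genes. The 69 enzymes, of which these are part, had 71.0% higher and a median of 0.10, so the list did not stand out from them. KDM2A was the 1 gene with an unadjusted p under 0.05. Without KDM4D, 6 were higher and 3 lower, and the median was 0.033. KDM2B, the paralogue of KDM2A and a subunit of a variant PRC1 complex, had 0.20 ± 0.11 (unadjusted p = 0.0863). KDM4A was at -0.18, KDM4B at 0.0027, KDM4C at 0.13, KDM4D at 0.15 and KDM8 at 0.03. SETD2, SETD3 and SETD5 had 0.20, -0.01 and -0.08, of which SETD3 is now known chiefly to methylate actin. With SI-2 (4 against 4), 4 were higher and 6 lower (median -0.036), SETD2 being the 1 with an unadjusted p under 0.05. Without KDM4D, 4 were higher and 5 lower.

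A further 15 named enzymes, which include targets of inhibitors, each had an unadjusted p of 0.05 or more in both comparisons of 4 with 4 libraries. On the log2 scale, BR over WT was 0.19 ± 0.11 for EZH2, 0.10 ± 0.12 for EZH1, 0.12 ± 0.09 for DNMT1, 0.18 ± 0.12 for DNMT3A and 0.27 ± 0.27 for DNMT3B. HDAC1, HDAC2, HDAC3 and HDAC6 had 0.13 ± 0.12, 0.08 ± 0.08, 0.23 ± 0.11 and 0.06 ± 0.09, and HDAC9 -0.24 ± 0.15. KDM1A, KDM6A, PRMT5, KMT2A and KMT2D had 0.17 ± 0.13, 0.22 ± 0.13, -0.07 ± 0.10, 0.04 ± 0.12 and -0.04 ± 0.08. With SI-2 the same genes lay between -0.17 (KDM1A) and 0.19 (KMT2A).

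Genes that work with these enzymes gave a similar picture, with 0 calls at an adjusted p under 0.05 in any of the 6 comparisons. Between the lines, the 19 tested corepressor partners of HDACs had 14 on the higher side in BR cells (median 0.13), with SAP30 (0.51 ± 0.20) and MTA2 (0.25 ± 0.11) at an unadjusted p under 0.05 (10.5%, against 14.4% of all genes). The 9 tested PRC2 partners had 4 higher and 5 lower (median -0.016), with JARID2 higher (0.22 ± 0.09) and PHF19 lower (-0.28 ± 0.09) at that level (22.2%, which is 2 genes). The 12 COMPASS partners, which work with the KMT2 enzymes, had 7 higher (median 0.015), with PAXIP1 at 0.28 ± 0.11 the 1 gene at that level (8.33%). Of 28 tested histone and DNA modifying enzymes whose symbols the naming rule does not cover, 18 were higher (median 0.061), and 5 had an unadjusted p under 0.05 (17.9%, close to the 14.4% of all genes), all higher: UHRF2 (0.48 ± 0.15), UHRF1 (0.34 ± 0.15), EHMT2 (0.31 ± 0.11), KAT6A (0.25 ± 0.08) and DOT1L (0.19 ± 0.08). UHRF1 recruits DNMT1 to replicating DNA. With SI-2, PSIP1 alone among all these genes had an unadjusted p under 0.05 in the comparison of 4 with 4 libraries (-0.24 ± 0.11). That level was reached by 2.22% of all genes. The plasma cell markers had 7 of 8 on the lower side in BR cells (median -0.27). MZB1 (-0.67 ± 0.20) and SDC1 (-0.53 ± 0.18) had an unadjusted p under 0.05 (25%, which is 2 genes, against 14.4% of all genes). The part of these markers in the differences of the enzymes was not tested.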

How the data were processed

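RNA of LP-1 cells was sequenced in 8 libraries, grouped by the labels into 4 conditions of 2. The authors sequenced on a BGISEQ-500, removed low-quality reads, and deposited estimated counts and FPKM per gene and per transcript. Their processing notes name BWA, Bowtie2, RSEM and hg19, with versions not given in the sources used here. RSEM divides reads between similar sequences, so values of close paralogues and overlapping genes are uncertain. The 8 deposited columns of condition averages and the authors' tables of fold changes and p-values were not used.

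Estimated counts were rounded, filtered (filterByExpr), scaled by TMM and tested with edgeR 4.0.16 (quasi-likelihood, R 4.3.3) across all genes, with Benjamini-Hochberg adjustment. Comparisons of 4 with 4 libraries used 2 groups (13520 genes), and the others a fit of 4 conditions (13896 genes), with residual spread pooled. The scripts were tested on simulated counts. Levels of different genes were compared in FPKM. DESeq2 1.42.0, upper-quartile and library-size scaling, no filter, a CPM filter, a fit with condition terms, the replicate number as a block and omission of each library were tried, and fits to 1 replicate number were added after the data were seen.

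The genes, lists and tests were chosen with earlier results of these data known. Genes were named if highest or lowest in their family by mean FPKM, at an unadjusted p under 0.05 in any comparison, among the 2 most higher or lower in a comparison (mean count at least 50), at 3 reads or fewer in every library, or on a list of H3K36 enzymes and much-studied enzymes. HDAC9, KMT5B, PRMT3, SIRT2, SIRT3 and the transcripts were singled out after their values were seen. Promoter windows come from RefSeq, GRCh38.p14. Estimates of level rest on at least 17997771 reads a library, and limits from counts cover counting error only.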

Additional observations from a re-analysis of the deposited data

Results flagged for a closer look

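In each of 138 groups of 4 libraries of 1 line (69 genes, 2 lines), the library farthest from the others was compared with the spread of the group, and 10 groups held a library that stood apart. Chance alone flags about 1 in 20 such groups where the 4 libraries are independent, which was not shown here. Values are CPM. In BR cells, vehicle replicate 1 was low in HDAC4 (37.0 against 47.3 to 48.8), KMT5B, which dimethylates H4K20 (71.7 against 96.0 to 101), and KDM4B (53.9 against 57.3 to 57.8). BR SI-2 replicate 1 was high in KDM2A (228 against 187 to 194) and KMT2E (279 against 207 to 215), and low in SETD9 (5.32 against 6.61 to 6.84). BR SI-2 replicate 2 was low in SETD1B, an H3K4 methyltransferase (56.8 against 59.6 to 60.1). In WT cells, SI-2 replicate 1 was high in HDAC3 (37.6 against 28.3 to 29.4) and SIRT1 (93.8 against 56.3 to 60.3), and vehicle replicate 1 was high in SIRT7 (23.4 against 21.0 to 21.1). In 9 of the 10 groups it was a replicate 1 library, with BR vehicle 1 and BR SI-2 1 each in 3 of them.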

How the results depend on the processing

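None of the 69 genes reached an adjusted p under 0.05 with other scalings, filters or model terms or with DESeq2, and without each library in turn the count ranged from 0 to 0 in all 6 comparisons (where a condition kept 1 library, that library was assumed to vary like the others). With the replicate block the count was again 0 in each comparison. Genes at an unadjusted p under 0.05 then numbered 9, 2, 0, 0, 0 and 4, against 19.1%, 6.34%, 1.68%, 0.871%, 0.662% and 3.02% of all genes (BR against WT over both treatments and under vehicle, SI-2 in BR and in WT cells, their difference, and SI-2 over both lines), and 155 of all genes were called between the lines, against 49 without the block. The labels give a number only. Deviations of libraries with the same number correlated at 0.44 (WT vehicle and WT SI-2), 0.37 (BR vehicle and BR SI-2), 0.20, 0.19, 0.10 and -0.12, so the numbers were not taken as pairs, and differences between libraries of 1 number are given as descriptions. Among all genes DESeq2 called 399 between the lines, condition terms 18, and omissions of a library from 21 (WT SI-2 2) to 125 (WT SI-2 1), while SI-2 in BR cells gave 67 without BR SI-2 1 in place of 0.

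Fits to 1 replicate number, chosen after seeing the data, gave 3 genes (replicate 1) and 38 (replicate 2) between the lines and 17 (replicate 1) with SI-2 over both lines. The log2 change of PRMT1 between the lines turned to 0.032 in replicate 1, and that of TET2 with SI-2 to -0.0090 in replicate 2. Without 1 library, the number of genes at an unadjusted p under 0.05 between the lines ran from 1 to 11. It was 1 without WT vehicle 2 or WT SI-2 2, where 1177 and 1241 of all genes were at that level. It was 11 without WT SI-2 1, where 2806 were, against 1942 with all 8 libraries. With SI-2 over both lines it ran from 0 (without BR vehicle 1 or BR SI-2 1) to 9 (without BR vehicle 2), with no count over all genes given. For SI-2 in WT cells the median log2 change of the 69 genes ran from -0.00065 (without WT SI-2 1) to 0.061 (without WT SI-2 2). HDAC4 kept an unadjusted p under 0.05 between the lines in all 17 alternatives, KDM2A in 14, SETD7 in 12, SIRT7 and PRMT1 in 9. With SI-2 over both lines, HDAC7 and SETD6 kept it in 13 of 17, TET2 and SETD2 in 10 and KDM6B in 7. The 17 include the fits to 1 replicate number, which rest on 1 residual degree of freedom. Between the lines, condition terms gave an edgeR p of 0.0114 for HDAC4, 0.0443 for KDM2A, 0.0446 for SETD7, 0.0881 for PRMT1 and 0.0887 for SIRT7. The median change of the 69 genes between the lines stayed between 0.069 and 0.13. The median for SI-2 changed sign without BR SI-2 1, to -0.045 in BR cells and -0.010 over both lines.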
